A study of Drosophila melanogaster with 24 samples.

Results

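A set of 120 transcripts out of 16637 set the Canton-S strain of Drosophila melanogaster apart from 3 other strains, both in late larvae and in prepupae. The members were chosen on their array levels. A transcript entered if the mean of the 3 Canton-S arrays lay at least 0.6 on the log2 scale above the mean of each other strain at both stages, or at least that far below each of them at both. The first kind held 49 transcripts, called higher members here, and the second held 71, called lower members. Canton-S levels against the other strains are therefore a description in all that follows and get no test. The share of all transcripts that met the rule was 0.721%.

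Canton-S and Oregon-R are fly stocks that laboratories have bred for many decades and use as wild-type references, and Samarkand and Zimbabwe-109 are further wild-type stocks with geographic names. Separately kept stocks carry different alleles at many genes, and such differences can alter how much of a transcript accumulates, or whether an array probe still matches it. The stages lie on either side of puparium formation, when a pulse of the steroid hormone ecdysone ends larval life and the programme of metamorphosis begins. Genes of feeding and growth then fall and genes of tissue breakdown and adult construction rise.

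Messenger RNA of whole animals was measured on single-colour arrays in 8 groups of 3 biological replicates. Oregon-R, Canton-S, Samarkand and Zimbabwe-109 each contributed late larvae of the last instar, with the stage label ≥18BPF, and white prepupae, labelled PF, which have just formed the puparium. No transgene, mutation or drug was given for any group. All animals grew at 25 °C in constant light, and the larvae fed on medium with 0.05% of the gut-marking dye bromophenol blue. Each replicate pooled about 120 mg of frozen animals, which were 60 to 80 individuals depending on the strain, and the labels do not state sex. RNA of each strain was extracted on its own, so that strain and extraction cannot be told apart. In whole animals, fewer cells of a type and less RNA per cell cannot be told apart either.

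The median deposited intensity ran from 1936 to 3289 over the 24 arrays. Before scaling, the 6 Canton-S arrays had a wider spread of values, their log2 intensities having an interquartile range of 1.56 ± 0.08 (SD, n = 6) against 1.24 ± 0.03, 1.23 ± 0.05 and 1.24 ± 0.05 in Oregon-R, Samarkand and Zimbabwe-109. Quantile normalization gives all arrays 1 common distribution. Late larva replicate 4 and prepupa replicate 2 of Zimbabwe-109 resembled the opposite stage of their strain more than the other Zimbabwe-109 arrays did (median r over all transcripts 0.93 and 0.96, against 0.89 to 0.91). Without these arrays the rule gave 119 members, of which 114 were among the 120. Only 1 of the 120 could be named, since the gene table at hand lists few transcript identifiers, and the other 119 are described by their values. None of the markers of stage or tissue in the gene lists had a named row, so the stage labels were not checked against them.

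In the median, higher members stood at a log2 intensity of 11.70 in Canton-S larvae, and at 10.59, 10.89 and 10.67 in those of Oregon-R, Samarkand and Zimbabwe-109. In prepupae the medians were 11.40 against 10.53, 10.47 and 10.39. Lower members stood at 11.66 in Canton-S larvae against 12.65, 12.57 and 12.65 in the same order, and at 11.96 in Canton-S prepupae against 12.80, 12.90 and 12.96. All 3 Canton-S arrays lay beyond all 9 arrays of the other strains in 120 of 120 members in larvae and in 119 in prepupae. Over all transcripts such a separation was found in 44.2% of them in larvae, in 28.2% in prepupae and on the same side at both stages in 19.3%. The choice of members favours it, so that nothing is read from these counts. The exception was FBtr0113918, a higher member whose prepupal arrays overlapped. The pooled standard deviation between replicates had a median of 0.14 in higher members and 0.12 in lower ones, against 0.10 over all transcripts.

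**Figure D1:**
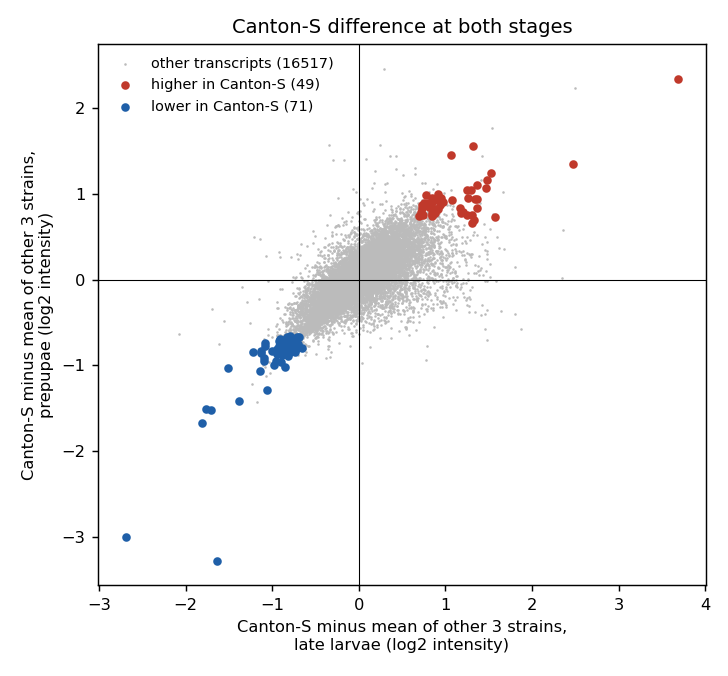
Each point is 1 transcript, placed by the Canton-S mean minus the mean of the other 3 strains in late larvae (x axis) and in prepupae (y axis), both on the log2 scale. The 49 higher and 71 lower members sit at the ends of the cloud of all transcripts, mostly within a difference of 1, and a few lie far beyond.

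**Figure D2:**
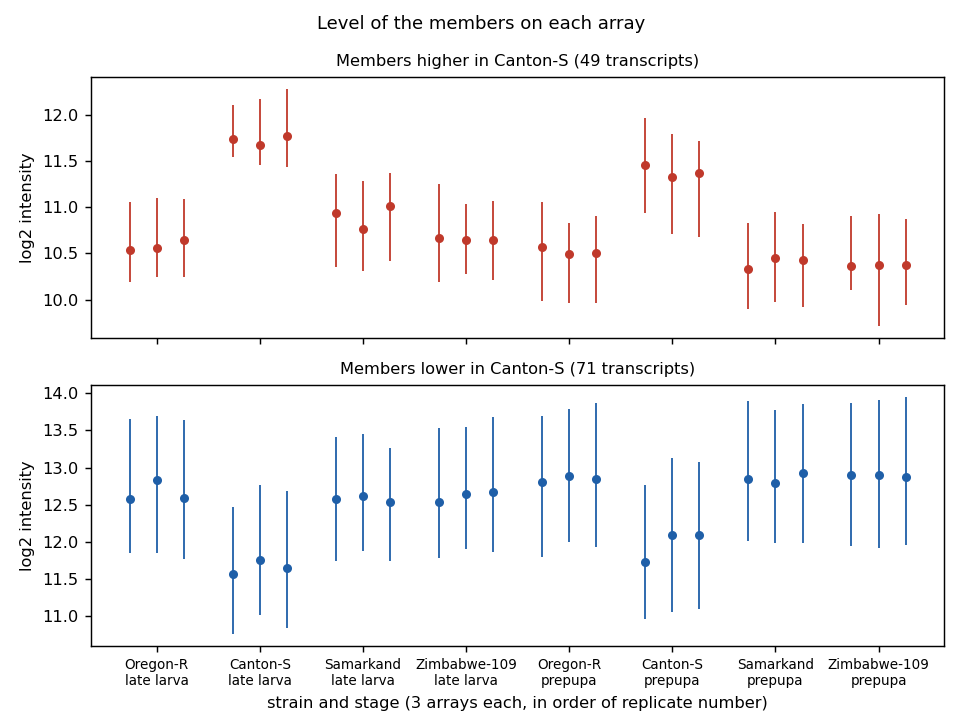
Points are the median log2 intensity of the 49 higher members (top) and the 71 lower members (bottom) on each array, and bars run from the lower to the upper quartile over members. The Canton-S arrays stand above the rest in the top panel, at 11.3 to 11.8, and below the rest in the bottom panel, at 11.6 to 12.1.

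The gap to the nearest other strain was modest in most members. Its median was 0.80 in larvae and 0.77 in prepupae among higher members, and -0.73 and -0.71 among lower members. It reached 1, a difference of 2-fold, in 23 members in larvae and 12 in prepupae, and in 8 members at both stages. The 3 higher members among these 8 were FBtr0082093, FBtr0087653 and FBtr0077914, and the 5 lower ones were FBtr0080868, FBtr0087451, FBtr0114047, FBtr0072089 and FBtr0076525. FBtr0072089 also met the rule for Samarkand, where it was highest, and was the only member to meet it for a second strain. Near the limit, the smaller of the 2 gaps was 0.601, 0.601 and 0.609 in the 3 higher members just inside and 0.598, 0.596 and 0.596 in the 3 transcripts just outside. On the lower side these gaps were -0.602, -0.605 and -0.605 inside and -0.598, -0.596 and -0.595 outside.

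FBtr0082093 had the widest gap of all higher members. In larvae its log2 intensity was 11.84, 12.04 and 12.18 on the Canton-S arrays. Oregon-R larvae read 8.15, 8.15 and 8.03, Samarkand larvae 8.88, 8.88 and 8.83, and Zimbabwe-109 larvae 8.08, 7.93 and 8.03. In prepupae the Canton-S arrays read 10.82, 10.55 and 10.56 and those of the other strains lay between 7.76 and 9.04. The transcript was thus bright in Canton-S and close to the dimmest on the array elsewhere, with Samarkand a little above the other two. As deposited, its intensity was 1116 to 5155 in Canton-S and 253 to 635 in the other strains, where only 2 to 170 of the 16637 transcripts were dimmer on an array. The gap was 3.16 in larvae and 1.68 in prepupae, and normexp background correction moved it to 4.09 and 1.98. With the other strains this near the floor, its size is known only roughly and no fold is given.

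FBtr0087653 came second among higher members. In larvae it read 11.56, 11.48 and 11.15 in Canton-S. Oregon-R larvae read 10.02, 9.79 and 10.16, Samarkand larvae 9.95, 10.06 and 10.02, and Zimbabwe-109 larvae 10.16, 10.48 and 10.11. In prepupae Canton-S read 11.60, 11.96 and 11.56, with means of 9.88, 10.17 and 10.39 in the other strains. The means of the 3 other strains spanned 0.26 in larvae and 0.50 in prepupae, against medians of 0.25 and 0.20 over all transcripts. All Canton-S arrays lay above the other strains. Its gap of 1.15 in larvae and 1.32 in prepupae grew to 1.91 and 2.11 with normexp.

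NaPi-III was the 1 member with a gene name. It encodes a sodium-dependent phosphate transporter, a membrane protein that carries inorganic phosphate into cells. The link to transcript FBtr0076213 comes from a synonym in the gene table, the label of a reading frame that carries this identifier. Canton-S larvae read 12.59, 12.54 and 12.64, while Oregon-R larvae read 11.13, 11.12 and 11.07, Samarkand larvae 11.46, 11.39 and 11.39, and Zimbabwe-109 larvae 11.57, 11.04 and 11.37. Canton-S prepupae read 11.97, 11.54 and 11.74, while Oregon-R prepupae read 11.05, 10.66 and 10.91, Samarkand prepupae 11.11, 10.85 and 10.95, and Zimbabwe-109 prepupae 10.98, 11.23 and 11.22. Canton-S lay above every other array at both stages. Zimbabwe-109 overlapped both Oregon-R and Samarkand at both stages, and Oregon-R and Samarkand overlapped each other in prepupae. With a smaller gap of 0.61, in prepupae, NaPi-III was 1 of the members just inside the limit. Of 5 genes in a list of phosphate and solute transporters it was the only one with a named row.

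FBtr0080868 had the largest smaller gap of the lower members. In Canton-S it read 7.93, 7.86 and 8.08 in larvae and 7.86, 7.93 and 7.93 in prepupae. Oregon-R larvae read 10.53, 10.62 and 10.61, Samarkand larvae 10.49, 10.59 and 10.50, and Zimbabwe-109 larvae 10.56, 11.22 and 10.73, and the prepupal means of these strains were 10.91, 10.85 and 10.99. Every Canton-S array held it among its dimmest transcripts, with only 3 to 6 dimmer. As deposited, its intensity was 185 to 269 in Canton-S and 1483 to 2253 elsewhere. The gap was -2.57 in larvae and -2.94 in prepupae. Values this near the floor of the arrays give its size only roughly: it was -2.07 and -2.65 with normexp, and -3.00 and -3.17 without scaling.

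FBtr0087451 was lower in Canton-S by an amount that differed between the stages. Canton-S larvae read 10.69, 10.49 and 10.48. Oregon-R larvae read 12.13, 12.07 and 12.24, Samarkand larvae 12.14, 12.11 and 12.19, and Zimbabwe-109 larvae 12.24, 12.41 and 12.20. Prepupal Canton-S arrays read 8.49, 8.93 and 8.51, while the other strains had means of 11.95, 11.96 and 11.86. The gap was -1.60 in larvae and -3.21 in prepupae. In Canton-S prepupae the transcript was near the floor of the arrays. Its deposited intensity there was 290 to 547, with only 23 to 124 transcripts dimmer on an array. The size of the prepupal gap is thus known only roughly, at -3.96 with normexp and -2.85 with scale normalization. The transcript with the next identifier, FBtr0087452, singled out after its values were seen, went the other way. It read 13.99, 14.05 and 13.95 in Canton-S larvae, against means of 11.93, 12.55 and 12.79 in Oregon-R, Samarkand and Zimbabwe-109. In prepupae it read 12.02, 12.76 and 12.24 in Canton-S, against means of 11.58, 11.54 and 11.71, a gap of 0.63.

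**Figure D3:**
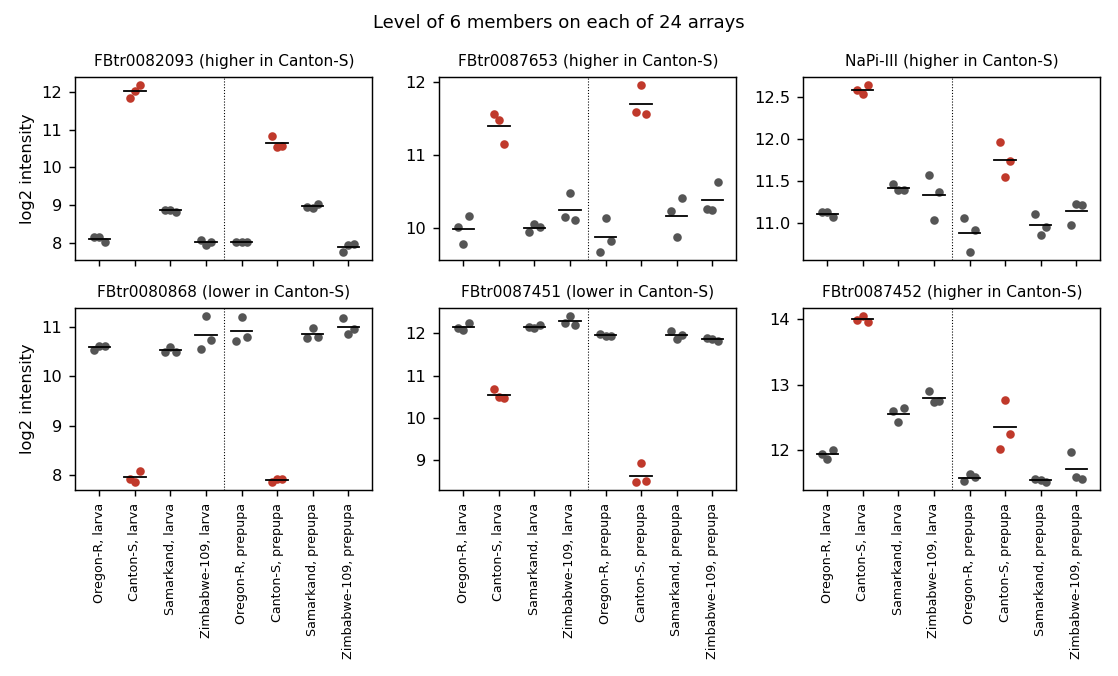
Log2 intensity on each of 24 arrays of FBtr0082093, FBtr0087653, NaPi-III, FBtr0080868, FBtr0087451 and FBtr0087452, by strain and stage, with Canton-S in red and lines at the group means of 3 arrays. FBtr0082093 and FBtr0080868 are close to the floor of the arrays in one set of strains, as is FBtr0087451 in Canton-S prepupae. FBtr0087451 and FBtr0087452 lie on opposite sides of the other strains.

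Some members had neighbouring identifiers. There were 7 pairs of members with consecutive identifiers, made of 12 transcripts, where the whole table held 12790 such pairs. Both members were on the same side in 5 of the 7, with r over 24 arrays of 0.9395 to 0.9955. Lying on the same side by the rule favours such likeness, so nothing is read from these values. FBtr0082275 and FBtr0082276 had gaps of 1.12 and 1.25 in larvae and 0.87 and 0.89 in prepupae. FBtr0089799 and FBtr0089801, with FBtr0089800 between them, had gaps of 1.05 and 1.02 in larvae and 0.94 and 0.92 in prepupae. Whether such transcripts come from 1 gene or share probes is not recorded in the files, so the 120 members may stand for fewer genes. The pairs on opposite sides were FBtr0087451 with FBtr0087452 and FBtr0113918 with FBtr0113919.

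Higher and lower members differed in how bright they were over all arrays. The rule set no level, but this mean is built from the strain means that it read. By the rule the other strains lie below Canton-S in higher members and above it in lower ones, which adds to the contrast. In Canton-S the medians of higher and lower members were 11.7 and 11.66 in larvae, and 11.4 and 11.96 in prepupae. Oregon-R larvae had 10.59 and 12.65. The mean log2 intensity over all arrays had a median of 10.83 in higher members, at percentile 28.6 of all transcripts, and of 12.51 in lower members, at percentile 88.7. The contrast was smaller in the 48 members that met the rule under each of 6 scalings of the arrays, with median percentiles of 43.3 in the 22 higher and 66.1 in the 26 lower ones. In the brightest 10% of all transcripts there were 35 of the 71 lower members and 0 of the 49 higher ones. Among higher members 38 lay in the dimmer 50% of transcripts, against 12 of the lower. Over the whole brightest 10%, 1664 transcripts, the median Canton-S difference was -0.10 in larvae and 0.02 in prepupae. Members differ by more through the rule itself, so nothing is read from setting them beside these medians.

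**Figure D4:**
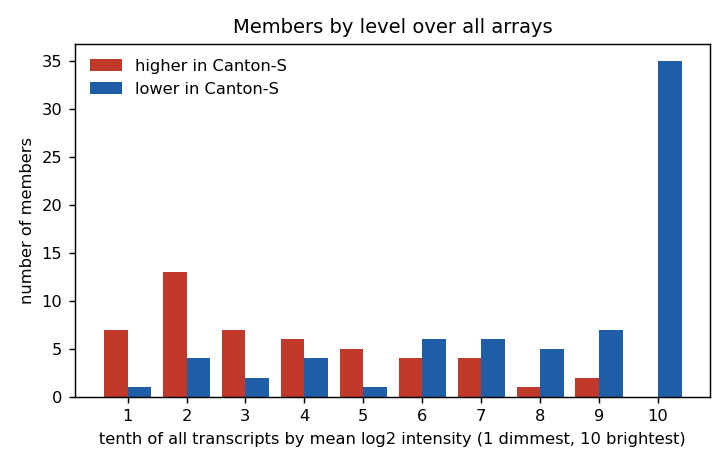
Bars count the higher (red) and lower (blue) members in successive bins of 10% of all transcripts, ordered by mean log2 intensity over 24 arrays. The brightest bin holds 35 lower members and no higher one, and the bin next to the dimmest holds 13 higher members.

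The identifiers of the lower members were unevenly spread. Of the 71, 26 had identifiers that start with FBtr0113 or FBtr0114, which is 36.6% of the lower members, while 892 transcripts or 5.36% of the table start so. These starts were picked after the values were seen. The 26 were bright, with a median level of 13.41 against 11.95 in the other 45, and 23 of them lay in the brightest 10%. Among the 108 transcripts with these starts in the brightest 10%, the median Canton-S difference was -0.69 in larvae and -0.58 in prepupae. In the 1556 other transcripts of that bin it was -0.08 and 0.04. Those medians include the 23 members. Canton-S lay below each other strain mean at both stages in 88 of the 108, and in 387 of the 1556. Low Canton-S values among bright transcripts with these identifiers were thus not confined to members. What kind of RNA they are was not given in the files.

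Which transcripts met the rule depended on how the arrays were scaled. The 6 settings were quantile, median centring, no scaling, scale normalization, quantile within each stage, and normexp. Only 48 members, 22 higher and 26 lower, met the limit of 0.6 under all of these, FBtr0082093, FBtr0087653, NaPi-III, FBtr0080868 and FBtr0087451 among them. FBtr0113973, described below, missed it under median centring, no scaling and scale normalization. FBtr0073297, also described below, missed it under median centring and no scaling. With median centring the rule gave 319 higher and 57 lower transcripts, and 41 of the higher and 33 of the lower members were still included. Without scaling it gave 29 higher and 187 lower, with the median of all transcripts itself at -0.31 in Canton-S larvae relative to the other strains. Of the 26 lower members that held under every setting, 2 were in the brightest 10% and 3 had identifiers starting with FBtr0113 or FBtr0114. Most of the 26 lower members with those identifiers thus met the limit under some settings only.

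The rule compared strains within a stage and did not use the stage difference averaged over the 4 strains. This average was tested next as prepupa minus late larva in a limma fit of all 24 arrays. The stage change in Canton-S alone, or in the mean of the other 3 strains, is not separate from the gaps that the rule read. Both are given as a description. Averaged over the 4 strains, 26 of the 49 higher members fell and 9 rose, while 60 of the 71 lower members rose and 3 fell. Over all transcripts 45.0% rose and 26.4% fell, 71.4% in all. The share that fell was 53.1% among higher members, and the share that rose was 84.5% among lower members. The median change was -0.21 in higher members, 0.23 in lower members and 0.07 over all transcripts. Without scaling 28 lower members rose, in a fit that called 6054 transcripts in all in place of 11887. The identifier starts FBtr0113 and FBtr0114 moved along with this result. Of all 892 transcripts with these starts 609 rose and 107 fell, as did 102 and 4 of the 108 in the brightest 10%, and all 26 lower members with them rose. In the brightest 10% without these starts 798 of 1556 rose and 488 fell. Of the 45 other lower members 34 rose and 3 fell. The part of these identifiers in the result was not tested.

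Of the higher members 6 fell at least 2-fold in this mean, and of all 120 members 0 rose that much. Of all 16637 transcripts 502 fell and 144 rose at least 2-fold, so large rises were rare in general. FBtr0089799 read 12.02, 12.17 and 12.35 in Canton-S larvae and 11.14, 10.56 and 10.56 in Canton-S prepupae. In Samarkand it went from a mean of 11.13 to 9.34, in Zimbabwe-109 from 10.39 to 9.35 and in Oregon-R from 10.45 to 9.82. Its mean change was -1.22 ± 0.08 (SE, adjusted p = 2.23e-11). FBtr0073297 changed by -1.20 ± 0.06 (adjusted p = 2.2e-13), from 12.48 to 10.79 in Canton-S and from 10.59 to 10.09 in Oregon-R. For both, the prepupal mean was below the larval one in 4 of 4 strains, which were not tested one by one. The change of NaPi-III was -0.43 ± 0.06 (adjusted p = 3.86e-06), also with 1 sign in 4 of 4 strains.

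The strongest rise of a member was in FBtr0113973, a lower member. It read 11.04, 11.24 and 11.09 in Canton-S larvae and 11.27, 12.25 and 12.16 in Canton-S prepupae, and 12.45, 13.75 and 12.69 in Samarkand prepupae. Replicates were far apart in both prepupal groups. Its mean change of 0.76 ± 0.14 passed the test (adjusted p = 0.000101). In Canton-S alone the change of 0.77 ± 0.28 was only narrowly past the threshold. It no longer was without Canton-S prepupa replicate 2 (0.59) or replicate 3 (0.63), or without larva replicate 1 (0.72) or replicate 4 (0.75). Nor was it with the replicate number as a fixed block (0.58). FBtr0113905, also lower in Canton-S, rose by 0.64 ± 0.04 (adjusted p = 5.72e-12), from 10.26 to 11.18 in Canton-S and from 11.28 to 12.05 in Samarkand. The 3 lower members that fell were FBtr0087451 (-0.68 ± 0.05), FBtr0086669 (-0.17 ± 0.02) and FBtr0112450 (-0.16 ± 0.03). For FBtr0112450 a large fall was seen in Zimbabwe-109 alone, from 11.96 to 12.24 in larvae to 11.27 to 11.34 in prepupae. Samarkand read 10.93 to 10.99 in larvae and 11.09 to 11.11 in prepupae, Oregon-R 10.97 to 11.06 and 10.95 to 10.99. Its change in Canton-S was 0.08.

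The counts for Canton-S and for the other 3 strains apart are a description, since the rule read the same group means. Within Canton-S, 26 higher members fell and 4 rose, and 40 lower members rose and 2 fell. Over all transcripts 56.7% changed in Canton-S, with 33.6% rising and 23.2% falling. The 4 that rose were FBtr0077246, FBtr0081743, FBtr0085614 and FBtr0089418, and 2 transcripts rose without Canton-S larva replicate 4. In the mean of the other 3 strains 26 higher members fell and 8 rose, and 58 lower members rose and 4 fell, where 37.6% of all transcripts rose, 21.8% fell and 59.4% changed. Without scaling 5 lower members rose in the other strains, where 3183 transcripts were called in all in place of 9890. The same direction was called on both sides in 65 of 120 members, and in 7577 of 16637 transcripts. Opposite directions were called in 51 transcripts of the table and in 2 members, FBtr0089418, which changed by 0.24 in Canton-S and -0.16 in the others, and FBtr0114074, with -0.21 and 0.20. The largest median stage change of the lower members was 0.32, in Samarkand, and the smallest 0.11, in Oregon-R.

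**Figure D5:**
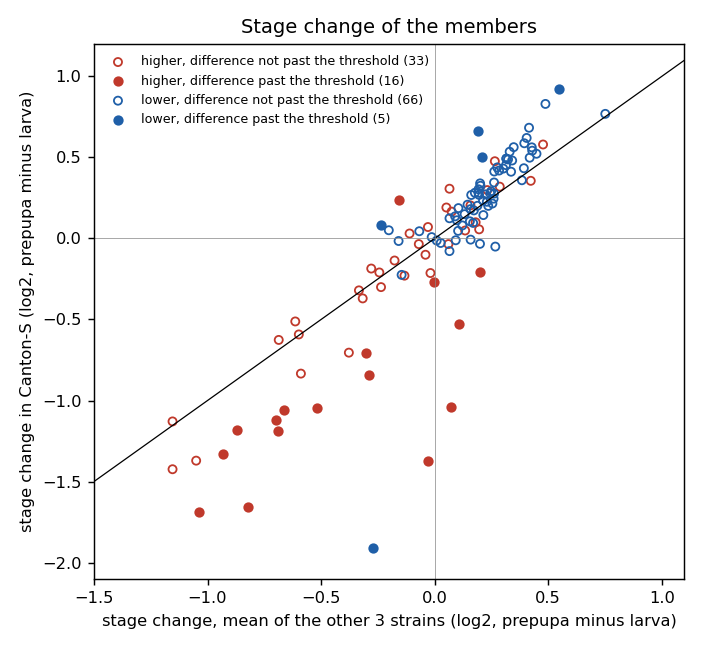
Each point is 1 member, placed by its stage change (prepupa minus late larva, log2) in the mean of the other 3 strains (x axis) and in Canton-S (y axis). Red marks the 49 higher and blue the 71 lower members, filled points differ between the axes past the threshold of the fit, and the line marks equal changes. Of the filled red points 15 lie below the line and 1 above it.

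The distance of Canton-S from the mean of the other 3 strains was not equally wide at both stages. From here on, a gap called wider or narrower is this distance, not the gap to the nearest strain. The 2 can differ. In FBtr0073297 the gap to the nearest strain was 0.68 in larvae and 0.61 in prepupae, while the difference defined next was -0.65. Its difference between them is the stage change in Canton-S minus that in the mean of the other strains, and is built from the same group means as the rule. A transcript whose gap closed at one stage could not become a member. The following counts past the threshold of the fit are therefore a description, and nothing is read from the shares over all transcripts printed beside them. Among the 49 higher members the gap was wider in larvae in 15 and wider in prepupae in 1, FBtr0089418, where the shares of all transcripts higher in Canton-S on the mean of both stages were 16.8% and 9.48%. Among the 71 lower members it was wider in larvae in 4 (FBtr0072122, FBtr0086214, FBtr0112450 and FBtr0113905) and wider in prepupae in 1, FBtr0087451, where the shares of transcripts lower in Canton-S were 11.5% and 4.69%. Over all transcripts 21.0% differed, 10.5% in each direction.

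Single arrays moved the small counts. Without Canton-S prepupa replicate 1, 14 lower members had the wider gap in larvae, and without Canton-S larva replicate 1, 2 higher members had the wider gap in prepupae. Without Oregon-R prepupa replicate 3, or without Zimbabwe-109 larva replicate 3, 2 lower members did. The count of 15 higher members became 5 without scaling, in a fit that called 1647 transcripts in place of 3492, and 7 with the replicate number as a fixed block.

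The largest of these differences were in members already described. In FBtr0087451 the stage change was -1.91 ± 0.09 in Canton-S and -0.27 ± 0.05 elsewhere, a difference of -1.64 ± 0.11. Its Canton-S prepupal level was near the floor of the arrays, so the size of this difference is known only roughly. FBtr0082093 fell by 1.37 in Canton-S, and its change of -0.03 ± 0.05 elsewhere, near the floor of the arrays, was not past the threshold. The difference was -1.34 ± 0.09. FBtr0077914 had a stage change of -1.04 in Canton-S and 0.07 in the others, a difference of -1.12 ± 0.07. In Zimbabwe-109 it too was dim, at 8.78 to 8.93 over both stages, so the size of this difference is less certain.

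FBtr0087452 changed by -1.65 in Canton-S and -0.82 in the others, a difference of -0.83 ± 0.15, and FBtr0073297 by -1.69 and -1.04, a difference of -0.65 ± 0.13. For NaPi-III the stage change was -0.84 ± 0.12 in Canton-S and -0.29 ± 0.07 in the others. Its difference was -0.55 ± 0.14. It was -0.65 without scaling, -0.58 with normexp and -0.46 with a fixed replicate block, and was not past the threshold in any of these. FBtr0113905 rose by 0.92 in Canton-S and by 0.55 in the others, a difference of 0.38 ± 0.09, so that its gap was narrower in prepupae. The difference was smaller beside its standard error in FBtr0080868 (-0.32 ± 0.15), FBtr0087653 (0.24 ± 0.18), FBtr0089799 (-0.27 ± 0.18) and FBtr0113973 (0.02 ± 0.33).

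The same rule was applied to the other strains for comparison, as a description. It gave 18 transcripts for Oregon-R (9 higher, 9 lower), 36 for Samarkand (18 higher, 18 lower) and 61 for Zimbabwe-109 (36 higher, 25 lower), against 120 for Canton-S. The other strains were counted with quantile normalization only, and the Canton-S count moved with the scaling. Whether this order holds under other scalings was not tested. In larvae the strain nearest to Canton-S was Samarkand in 76 of the 120 members, and in prepupae it was Oregon-R in 63. Over all transcripts Samarkand was nearest in 8862 of 16637 in larvae and Oregon-R in 6737 in prepupae. The other 3 strain means of a member spanned a median of 0.28 in larvae and 0.20 in prepupae, against 0.25 and 0.20 over all transcripts.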

How the data were processed

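The authors deposited 1 table of array intensity values on a linear scale, whole numbers for 16637 FlyBase transcripts on 24 arrays. The submitters' processing notes name RMA, with no version, yet the array medians differ, so no common scale was present, and whether background had been subtracted stays unknown. Neither a genome build nor an annotation release is stated in the sources used. The log2 of each value was quantile normalized with limma 3.58.1 in R 4.3.3, with no filter. The linear model had 1 mean per group (8 groups, 24 arrays, 16 residual degrees of freedom) and empirical Bayes moderation. All tests were two-sided, with Benjamini-Hochberg adjustment over all transcripts and a threshold of 0.05, and the fit was tested on simulated data. Errors beside changes are standard errors, and "rose", "fell" and "wider" mean past that threshold. Arrays give no read depth, and their number limits the precision.

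The gene table (Release 6) held 44 identifiers, 16 of them with 1 gene. The text names members with a gene, the 2 higher and 2 lower members with the largest smaller gap, and the 2 strongest mean stage rises and falls with 1 sign in all strains. Any further identifier was chosen after its values were seen. The difference of the Canton-S gap between stages, planned as a test, is given as a description, since the rule read the same group means. Members, rule and gene lists (8, of which 1 had a named row) were chosen with earlier results of these data known. Replicate numbers came from the last digit of the sample titles. Of 9 same-numbered pairs within a strain, 5 had correlated deviations over 0.1 (range -0.63 to 0.42), so the numbers were not used as pairs. No sequences are shown, since the sources used here give none for these transcripts.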

Additional observations from a re-analysis of the deposited data

Results flagged for a closer look

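The stage change in Canton-S was compared with that in the mean of the other 3 strains by an interaction contrast in limma. It differed in 6 of the transcripts singled out by gene name, gap, mean stage change or neighbouring identifier. Of these, FBtr0087452 was chosen after its values were seen. In FBtr0080868, FBtr0087653, FBtr0089799 and FBtr0113973, also singled out, the difference was not past the threshold. Over all transcripts 21.0% differed, and nothing is read from this share. Further members mentioned above also differed, among them FBtr0077914 (-1.12) and FBtr0089418 (0.40), and are not repeated here. The rule that chose the members read the same group means, so these values are a description. The differences on the log2 scale were -0.55 for NaPi-III, -1.34 for FBtr0082093, -1.64 for FBtr0087451, 0.38 for FBtr0113905, -0.65 for FBtr0073297 and -0.83 for FBtr0087452. By the distance to the mean of the other strains, FBtr0087451 is the 1 lower member with a wider gap in prepupae past the threshold. Its neighbour in number, FBtr0087452, is a higher member whose gap was wider in larvae. Groups of 3 arrays are too small for a test of single outlying arrays.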

How the results depend on the processing

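The member rule gave 120 transcripts (49 higher, 71 lower). It gave 376 with 319 higher under median centring, 216 (29 higher, 187 lower) without scaling, 81 higher with scale normalization, 563 (299 higher, 264 lower) with normexp, 22 higher without the dimmest 30% of transcripts, 276 (123 and 153) with a gap of 0.5, and 8 (3 and 5) with a gap of 1. Leaving out 1 array gave 88 to 138 members, at least 83 of them among the 120, the lowest without Canton-S prepupa replicate 1. Stage calls of the members changed by over 1.5 times as follows. Without scaling, on the mean of 4 strains 4 higher and 28 lower members rose and 1 lower member fell. In Canton-S 1 lower member fell, and in the other strains 1 higher and 5 lower members rose and 1 lower member fell. The gap was wider in larvae in 5 higher members and wider in prepupae in 0 (3 at an unadjusted p). Under median centring, 0 higher members had the wider gap in prepupae (1 at an unadjusted p) and 8 lower members had it in larvae. Without the dimmest 30%, which leaves 22 higher members, 4 rose and 11 fell on the mean, 11 fell in Canton-S, 3 rose and 12 fell in the others, and 6 had a wider larval gap. With a fixed replicate block, 2 higher members rose in Canton-S, 7 had the wider gap in larvae and 0 in prepupae (2 at an unadjusted p), though the numbers are not shown to pair the arrays. The difference for NaPi-III was then -0.46 and no longer past the threshold, nor was it without scaling or with normexp. A random replicate block, quantile normalization within each stage and fits of the contrast's own arrays moved no count that far. Over single arrays left out, higher members rising in Canton-S ranged from 2 to 5, and those with a wider prepupal gap from 1 to 2. Lower members with a wider larval gap ranged from 4 to 14, and with a wider prepupal gap from 1 to 2. No stage change of a named transcript that passed the threshold changed sign under any alternative run. The cause of these shifts was not tested beyond the smaller number of transcripts or arrays in some settings.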
